A study of Mus musculus with 4 samples.

Results

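The genes described here are the 71 genes on the array whose name begins with Nduf, Uqcr or Atp5, out of 26761 named genes. They were taken from the non-control probes by the gene name printed in the scanner files, and they are covered by 117 of 56605 probes. By prefix, 45 genes were assigned to complex I (Nduf), 8 to complex III (Uqcr) and 18 to ATP synthase (Atp5). By role, 59 of them encode subunits of these 3 complexes in the nucleus. The other 12 are 7 complex I assembly factors, Ndufa4 and its paralog Ndufa4l2, the assembly genes Atp5s and Atp5sl, and the pseudogene Atp5c1-ps. Ndufa4 is now known as a component of complex IV. All 71 genes were well above background on all 4 arrays.

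Complex I takes electrons from NADH into the mitochondrial inner membrane, complex III passes them from ubiquinol to cytochrome c, and both move protons out of the matrix. ATP synthase lets the protons return through a turning ring and uses that rotation to make ATP. Most subunits are encoded in the nucleus, while a few hydrophobic ones of complexes I, III, IV and ATP synthase are encoded by mitochondrial DNA, so each complex is built from transcripts of both genomes.

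The RNA came from lungs of C57BL/6J mice at 3 weeks, after sham surgery or ORX and with inhaled PBS or PPE, and was read on 4 Agilent 1-colour arrays. The groups are named by surgery and agent, as in sham/PBS, and all share that strain and tissue. ORX is taken here to stand for orchiectomy, since the study concerns testosterone deficiency, and PPE for porcine pancreatic elastase, since its emphysema model uses elastase. Every array held a pool made from 5 animals and each group is 1 array, so there are no replicates. Each difference below is therefore between pools, was not tested, and has a precision limited by the number of arrays. Marker genes of the labelled tissue, 8 of alveolar type 2 cells, 4 of alveolar type 1 cells, 3 of club cells and 4 of endothelium, were well above background on all 4 arrays. The 75th percentile of the processed signal, to which each array was scaled, lay between 829.8 and 999.2, and no spot was saturated. Levels are log2 signal minus log2 of that percentile, and differences are differences of such levels. Where 4 levels are listed they are in array order, which is sham/PBS, then sham/PPE, then ORX/PBS, then ORX/PPE. Where 4 differences are listed they are in comparison order, which is PPE in sham, then PPE in ORX, then ORX under PBS, then ORX under PPE. For probes printed 10 times on each array, the SD between spots of an array was converted to that of a difference. Its median over probes was at most 0.0512 on the 4 arrays, a typical value that single probes can exceed. At 2 SD, 0.102 served as the spot error. It covers spots and not animals, labelling or hybridization. The sham/PPE array stood apart from the others in cardiac muscle and sperm genes, with values given after the members.

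The comparison of PPE with PBS asked how transcripts of the elastase-treated lung differed within each surgery. In sham mice, respiratory chain and ATP synthase genes were higher on the PPE array by a median of 0.20, or 1.15-fold, and in ORX mice they were lower by a median difference of -0.070. Under quantile normalization the median in sham mice was 0.114. The deposited value table, whose member medians closely follow quantile normalization, also gave 0.114. In sham mice 68 of 71 genes had a difference above 0, against 53.0% of all 19403 measured genes (64.1% if arrays are scaled by their median). In ORX mice 15 of 71 were above 0, against 50.2% of 19641 genes. The comparisons of PPE in the 2 surgeries have no array in common. In bulk tissue, fewer cells of a type and less RNA per cell cannot be told apart.

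ORX was compared with sham under each agent to ask how the same transcripts differed with the surgery. Under PBS the genes stood higher on the ORX array by a median of 0.086, with 60 of 71 above 0, against 48.6% of 19709 measured genes. Other scalings moved that split, to 44 of 71 under quantile normalization, against 49.6% of all genes, and to 68 of 71 under median scaling, against 59.2%. Under PPE they stood lower on the ORX array by a median difference of -0.18, or 1.13-fold, with 6 of 71 above 0, against 47.2% of 19364 genes. The difference was above 0 under PBS and below 0 under PPE for 54 genes, against 23.8% of all genes. Each ORX comparison shares an array with each PPE comparison, so the 4 medians describe only 4 arrays.

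Set against all measured genes, the shift was small in size and narrow in spread. The SD over the 71 genes was 0.096, 0.090, 0.118 and 0.105 in comparison order. Over all measured genes the SD was 0.330, 0.265, 0.337 and 0.317, around medians of 0.018, 0.00095, -0.0086 and -0.015. The median of the 71 genes was thus 0.606 of the SD of all genes for PPE in sham and 0.556 for ORX under PPE, and 0.265 and 0.254 for the other 2. It sat at the 79.1th percentile of all genes for PPE in sham, the 34.6th for PPE in ORX, the 65.1th for ORX under PBS and the 22.8th for ORX under PPE. Genes of similar signal were a closer background. The 8356 genes within the central range of the members' mean signal had medians of 0.043, -0.0012, 0.018 and -0.020 and SDs of 0.232, 0.173, 0.263 and 0.217.

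**Figure D1:**
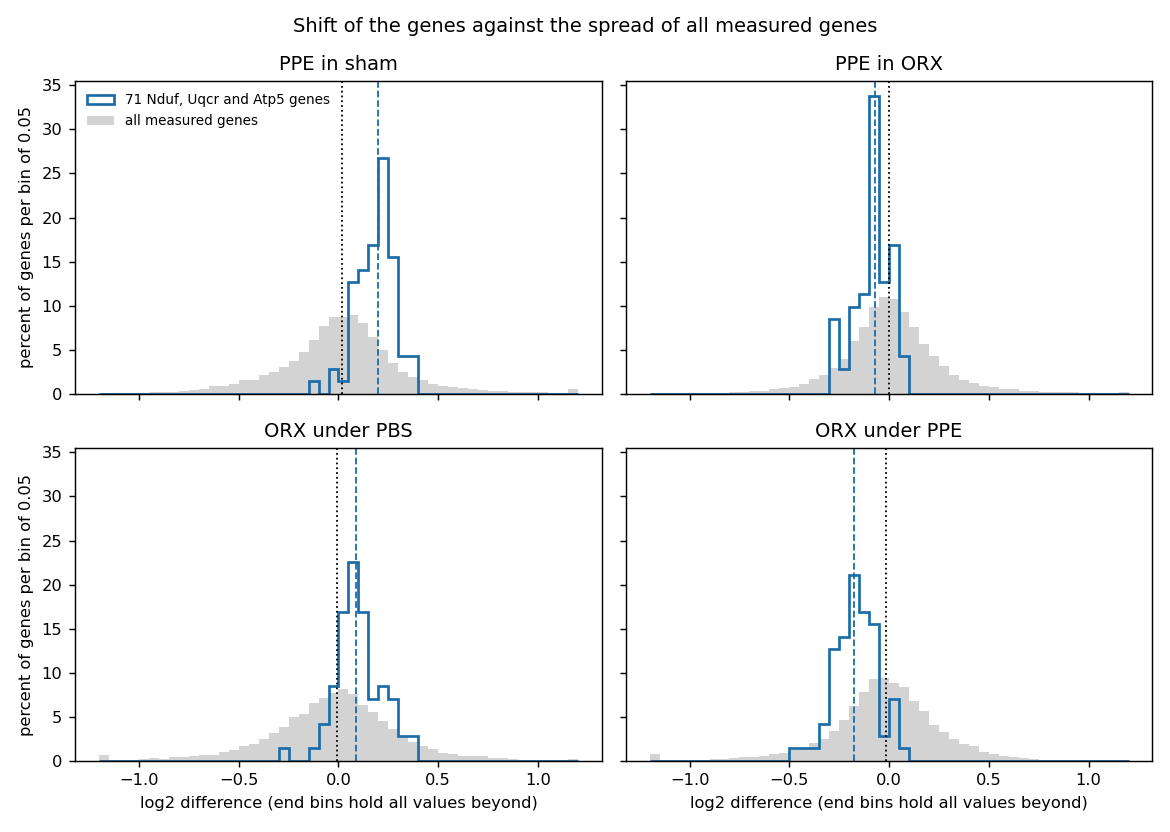
Histograms of the log2 difference in the 4 comparisons, as percent of genes per bin of 0.05, for all measured genes (grey) and the 71 Nduf, Uqcr and Atp5 genes (blue outline), with dotted and dashed lines at their medians. The blue outline is narrow and lies right of the grey median for PPE in sham (0.20 against 0.018) and left of it for ORX under PPE (-0.18 against -0.015), within the spread of all genes.

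No member reached 1.5-fold in any comparison. The background shares were 3.93% higher and 3.39% lower by that fold for PPE in sham, 2.58% and 1.88% for PPE in ORX, 3.18% and 4.76% for ORX under PBS, and 1.84% and 3.56% for ORX under PPE. Against the spot error, 58 of 71 genes were higher and 1 lower for PPE in sham, where 35.0% of all genes were higher and 30.3% lower. For PPE in ORX, 0 were higher and 23 lower, against 29.7% and 28.7%, so the lower side was near the background. For ORX under PBS, 31 were higher and 2 lower, against 32.5% and 36.3%. For ORX under PPE, 0 were higher and 52 lower, against 29.6% and 33.7%. An additive limma fit, which leaves 1 residual degree of freedom, over all 4 arrays and 20393 genes called 0 members and 0 genes in all (0.0%) for agent or surgery at an adjusted p of 0.05. At an unadjusted p under 0.05 it found 0 members, against 5.64% of genes for agent and 7.99% for surgery. The smallest adjusted p among the members was 0.9996 for agent and 0.7533 for surgery. That fit takes any difference between the 2 PPE effects as error.

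Read array by array, the sham/PPE array carried the highest level of most of these genes. Relative to each gene's own mean of the 4 arrays, the median was -0.078, 0.11, 0.020 and -0.059 in array order. Of 71 genes, 59 were highest on sham/PPE, against 25.5% of the 19088 genes above background on every array. On sham/PBS 42 were lowest, against 31.4%, and on ORX/PPE another 26, against 26.8%. Both held for 34 genes, against 9.41%. The PPE difference of sham minus that of ORX had a median of 0.26 and was above 0 for 70 of 71 genes, while its median over all genes was 0.021 with an SD of 0.409. A sign of plus for PPE in sham with minus for PPE in ORX was seen in 53 genes, against 28.1% of all genes. The exception to the 70 was the assembly factor gene Ndufaf7.

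**Figure D2:**
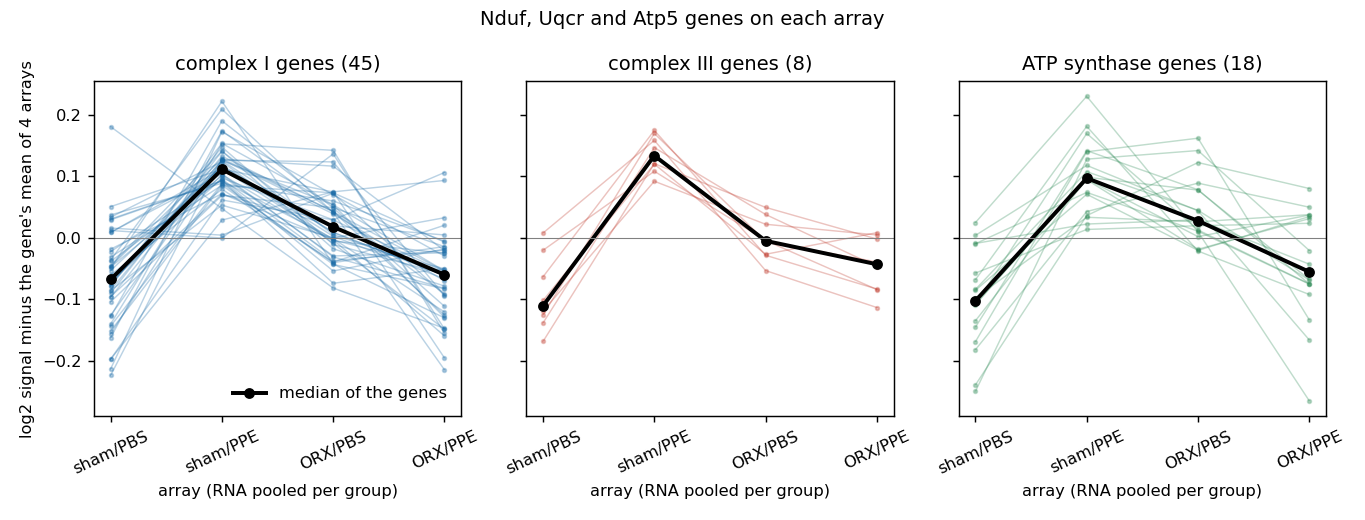
Log2 signal of each gene minus its mean of the 4 arrays, on the 4 arrays (1 pool each), for 45 complex I, 8 complex III and 18 ATP synthase genes, thin lines being genes and the thick black line their median. In each panel the median is highest on sham/PPE (0.11, 0.13 and 0.097) and below 0 on sham/PBS and ORX/PPE.

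The promoters of these genes are shown because most of their transcripts differed in the same direction between arrays. Of 71 genes, 60 had a promoter in RefSeq's table for GRCm38.p6, from 250 bases before to 50 after the start. Those promoters had a median GC content of 58.8%, against 52.7% over 27025 genes, and the motifs named next contain G and C. The NRF1 motif CGCATGCG, which reads the same on both strands, was found in 10 of 60 (16.7%), against 2.07% of all promoters. The YY1 motif AAGATGGCG, searched on both strands, was found in 8 of 60 (13.3%), against 1.64%. Counted from the gene start, its match began at -88 in Atp5j. In the other genes with the motif it began 22 to 35 bases after the start, on the gene's strand. The shorter ETS motif CCGGAAG, also searched on both strands, stood in 12 (20%), against 9.93%, and the ERR motif TCAAGGTCA in 1 (1.67%), against 0.466%. Matches of different motifs overlapped in 0 places. NRF1 and YY1 are transcription factors known to act at nuclear genes of the respiratory chain. A match of letters does not show that a factor bound there. The NRF1 and YY1 motifs were shortened after matches of longer forms had been seen, so their shares were not fixed beforehand. The background is every gene with a promoter in RefSeq's table, not the genes measured on the arrays. Windows of 30 bases on the gene's strand, 5′ to 3′ with the motif in capitals, are given for 4 NRF1 matches and 2 YY1 matches, which cover the 3 complexes and an assembly factor.
Uqcrc1, NRF1 motif, chr9:108936668-108936697, plus strand: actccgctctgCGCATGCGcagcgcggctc
Ndufa11, NRF1 motif, chr17:56717692-56717721, plus strand: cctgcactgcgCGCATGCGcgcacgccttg
Ndufaf5, NRF1 motif, chr2:140170652-140170681, plus strand: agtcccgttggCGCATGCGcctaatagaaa
Atp5k, NRF1 motif, chr5:108434430-108434459, minus strand: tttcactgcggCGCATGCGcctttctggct
Ndufs7, YY1 motif, chr10:80249463-80249492, plus strand: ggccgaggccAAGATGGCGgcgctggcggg
Ndufa9, YY1 motif, chr6:126849096-126849125, minus strand: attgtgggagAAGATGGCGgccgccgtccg
The 10 genes with the NRF1 motif had medians of 0.19, -0.078, 0.077 and -0.25 in comparison order. The 50 without it had 0.20, -0.069, 0.088 and -0.17, with the same 4 signs. The 8 genes with the YY1 motif had 0.22, -0.085, 0.17 and -0.20, and the 52 without it 0.20, -0.070, 0.080 and -0.17.

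Complex I followed the pattern of the whole group. Its 45 genes had medians of 0.18, -0.070, 0.083 and -0.18 in comparison order. The 7 nuclear core subunits, which hold the flavin and the iron-sulphur clusters that carry electrons, had medians of 0.18, -0.061, 0.075 and -0.18. All 7 were above 0 for PPE in sham and all 7 were highest on sham/PPE. The largest difference in that comparison was that of Ndufs8, which binds iron-sulphur clusters near the quinone site. Its levels were 3.49, 3.87, 3.77 and 3.67 in array order. It was lowest on sham/PBS and highest on sham/PPE, a difference of 0.39 or 1.31-fold, and it differed by -0.100 for PPE in ORX. The gene has a single probe, at mm9 chr19:3908949-3909008.

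Accessory subunits, which surround the core and are needed for its assembly or stability, showed the same direction with a spread among members. The 17 genes of the A, S and V series had medians of 0.17, -0.069, 0.068 and -0.18 in comparison order, and the value for ORX under PBS was -0.0053 under quantile normalization. The 12 genes of the B and C series, which lie largely in the membrane arm, had medians of 0.23, -0.073, 0.13 and -0.14. All 29 were above 0 for PPE in sham. Ndufb2, a membrane arm subunit, had levels of 3.94, 4.30, 4.28 and 4.15 in array order. It was thus low on sham/PBS alone, with differences of 0.35 for PPE in sham and 0.34 for ORX under PBS. A dimmer probe of Ndufb2 gave 0.32 and 0.27 in these comparisons and the dimmest, also above background, -0.26 and -0.39, so its probes disagree.

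Single accessory subunits differed in how far they followed that pattern. Ndufa10, of the membrane arm, had levels of 2.03, 2.32, 2.31 and 2.01 in array order. It was high on sham/PPE and ORX/PBS and low on the other 2, which gave differences of 0.29 for PPE in sham and -0.30 for PPE in ORX. Ndufv3, of the NADH-binding module, had levels of 4.50, 4.77, 4.51 and 4.42 and stood out on sham/PPE alone. Its difference of -0.35 for ORX under PPE was the lowest among subunits of complex I. A far dimmer probe of Ndufv3, also above background, gave 0.11 in that comparison, so its probes disagree. Ndufa2 had levels of 4.92, 5.17, 5.14 and 5.22, and Ndufa6 levels of 4.84, 5.06, 5.11 and 5.13. Both were highest on ORX/PPE and low only on sham/PBS, where most members were highest on sham/PPE. Ndufs4, whose loss in mice causes a Leigh-like disease, had levels of 2.96, 3.10, 2.98 and 3.04. Its largest difference was 0.14, for PPE in sham. Ndufa3, at 5.11, 5.17, 5.00 and 5.03, was lower on both ORX arrays than on either sham array.

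The 7 assembly factors, which build complex I and are not part of the finished enzyme, had medians below those of the complex I subunit groups in both PPE comparisons. Their medians were 0.061 for PPE in sham, with 4 of 7 above 0, and -0.17 for PPE in ORX, with 0 of 7 above 0. For ORX under PBS and under PPE their medians were 0.066 and -0.20, and 6 of 7 were lowest on ORX/PPE. Ndufaf5, which hydroxylates the core subunit Ndufs7, had levels of -0.82, -0.57, -0.74 and -0.99 in array order. Its difference of -0.42 for ORX under PPE was the lowest in complex I. A dimmer probe of Ndufaf5, also above background, gave -0.13, 0.14, -0.20 and 0.069 in comparison order, so its probes disagree in sign. Ndufaf3, at 0.083, 0.071, 0.21 and -0.078, was low on ORX/PPE alone, with a difference of -0.29 for PPE in ORX. Ndufaf7, a methyltransferase, had levels of 1.64, 1.51, 1.38 and 1.32. It was highest on sham/PBS, the only member of the 71 to be so, with differences of -0.13, -0.066, -0.26 and -0.19 in comparison order. A second probe of it gave -0.13, -0.29, -0.21 and -0.37. Ndufa4 and Ndufa4l2 lay near the medians of complex I in all 4 comparisons, at 0.23 and 0.18 for PPE in sham.

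**Figure D3:**
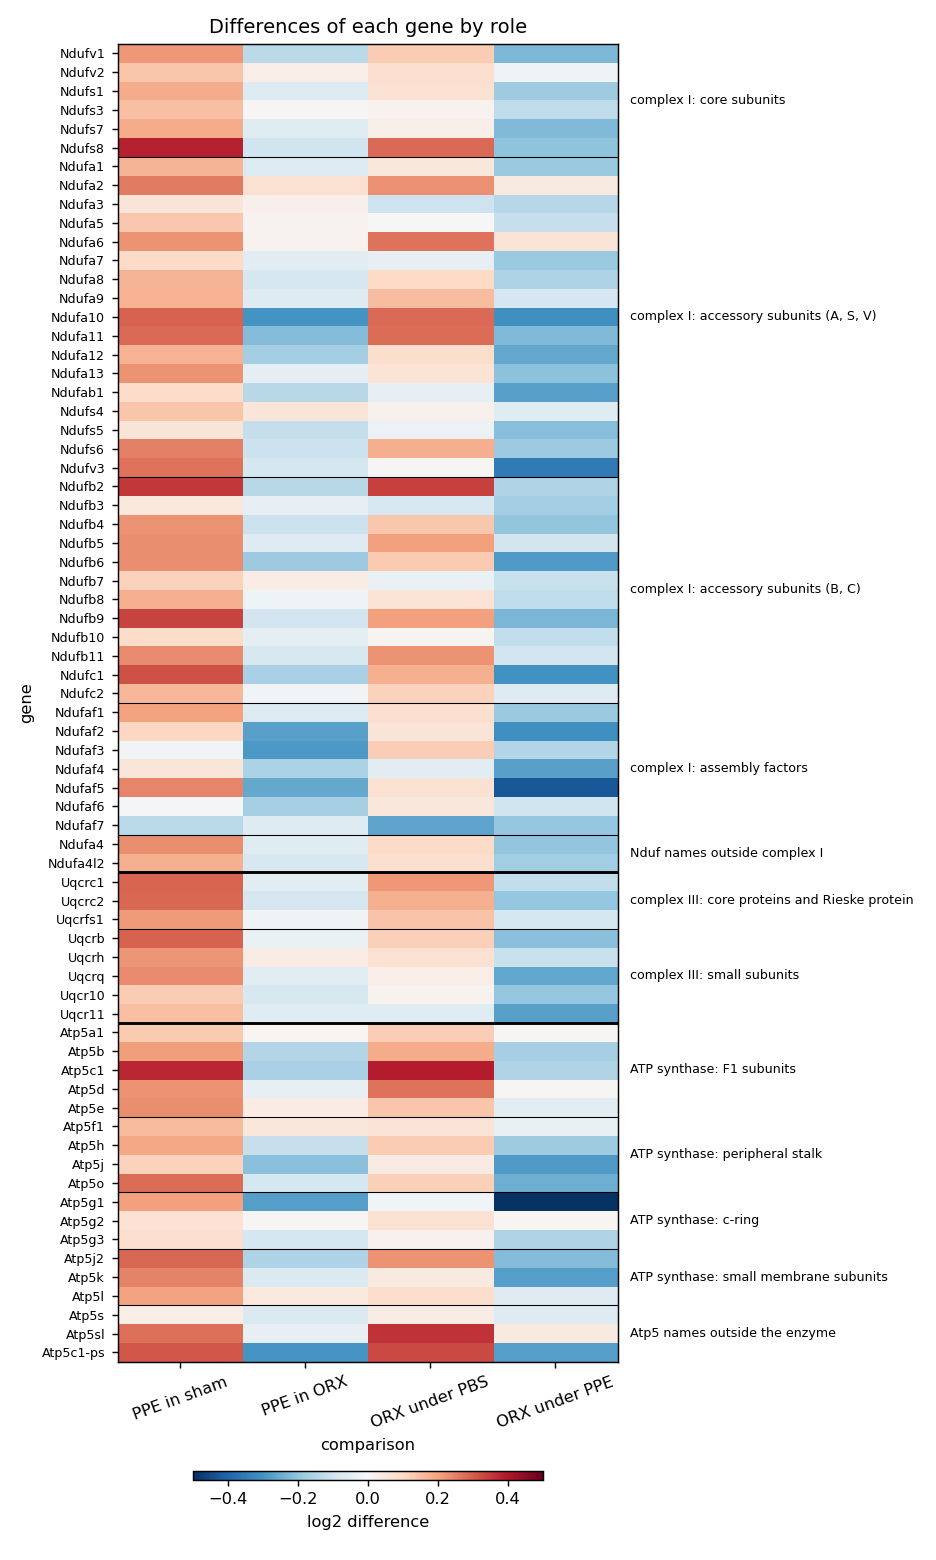
Log2 difference of 70 of the 71 genes (rows, grouped by role) in the 4 comparisons (columns), red for above 0 and blue for below 0 on a scale from -0.5 to 0.5. The column for PPE in sham is red for 67 of 70 genes and the column for ORX under PPE for 6 of 70, and the assembly factors are the block with least red for PPE in sham.

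Complex III was the most even of the 3. All 8 genes were above 0 for PPE in sham, all 8 were below 0 for ORX under PPE, and all 8 were highest on sham/PPE. The first of these held for all 59 subunits of the 3 complexes. Unlike the Nduf and Atp5 names, the Uqcr names hold subunits only. Their medians were 0.23, -0.053, 0.098 and -0.19 in comparison order, and no difference for PPE in ORX passed the spot error. Under quantile normalization the median was 0.131 for PPE in sham and 0.0147 for ORX under PBS. Uqcrc1, a core protein, had levels of 2.72, 3.00, 2.93 and 2.88 in array order. Uqcrc2, the other core protein, had 3.70, 3.98, 3.88 and 3.79. Uqcrfs1, the Rieske iron-sulphur protein that takes electrons from ubiquinol, had 3.19, 3.40, 3.33 and 3.31. All 3 were lowest on sham/PBS, with differences for PPE in sham of 0.29, 0.29 and 0.21.

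Among the small subunits of complex III, Uqcrb, which lies near the quinone site, had levels of 4.53, 4.82, 4.65 and 4.61 in array order. Its difference of 0.30 for PPE in sham was the highest of the complex. A dimmer probe of Uqcrb gave 0.11 in that comparison and the dimmest, also above background, -0.83, so its probes disagree. Uqcrq, with 5.31, 5.55, 5.34 and 5.29, stood out on sham/PPE alone. Uqcrh, the hinge protein that binds cytochrome c1, had 6.07, 6.29, 6.15 and 6.18, and was the only gene of the complex above 0 for PPE in ORX, by 0.035. Uqcr10 had 5.33, 5.46, 5.34 and 5.26, and Uqcr11 had 5.00, 5.15, 4.94 and 4.88. Both were lowest on ORX/PPE, and Uqcr11 had the lowest difference of the complex for ORX under PPE, -0.27. The 5 small subunits had a median of 0.035 for ORX under PBS, which was -0.061 under quantile normalization.

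ATP synthase genes had medians of 0.21, -0.079, 0.12 and -0.15 in comparison order. Under quantile normalization the median was 0.110 for PPE in sham and 0.0277 for ORX under PBS. The 5 genes of its catalytic head and central stalk had 0.22, -0.039, 0.19 and -0.058, and all 5 were lowest on sham/PBS. Atp5c1, the gamma subunit that turns inside the head, had levels of 4.62, 4.99, 5.01 and 4.85 in array order. It was low on sham/PBS alone, and its differences of 0.38 for PPE in sham and 0.39 for ORX under PBS were the highest of the 18 genes. Its single probe lies at mm9 chr2:9977718-9977777. Atp5c1-ps, a pseudogene of it, had differences of 0.31, -0.30, 0.33 and -0.27 in comparison order, and since a near-identical sequence may share the signal its value is uncertain.

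The 4 genes of the peripheral stalk, which holds the head still against the turning ring, had medians of 0.17, -0.10, 0.093 and -0.21 in comparison order. Atp5f1, the b subunit now named Atp5pb, had levels of 4.32, 4.47, 4.38 and 4.44 on the 4 arrays, within 0.16 of each other. Atp5j, coupling factor 6, had 4.41, 4.52, 4.45 and 4.23 and was low on ORX/PPE alone, with a difference of -0.28 for ORX under PPE. A far dimmer probe of Atp5j, also above background, gave -0.14, 1.17, -0.59 and 0.72 in comparison order, so its probes disagree. The 3 small membrane subunits had medians of 0.25, -0.071, 0.089 and -0.22. For ORX under PBS the medians of these 2 groups went down to 0.016 and 0 among the alternative settings. Atp5l, the g subunit, had 5.89, 6.09, 5.98 and 6.03 and was higher on sham/PPE than on the other 3 arrays.

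The c-ring that turns with the proton flow is encoded by 3 genes, Atp5g1, Atp5g2 and Atp5g3, whose mature proteins are the same, and they differed from each other. Atp5g1 had levels of 3.98, 4.19, 3.97 and 3.69 in array order. It was high on sham/PPE and low on ORX/PPE, and its difference of -0.50 for ORX under PPE, 0.709-fold, was the lowest of all 71 genes. Of its other probes, 1 gave -0.51 in that comparison and the other gave 0.067, so its probes disagree. The main probe lies at mm9 chr11:95934315-95934374. Atp5g2, measured by a probe printed 10 times, had 5.35, 5.42, 5.42 and 5.43. Its differences were 0.071, 0.0040, 0.077 and 0.010 in comparison order, below the spot error. That limit is for single spots and is too wide for levels averaged over 10 spots. Whether the differences of Atp5g2 passed a limit for such averages was not tested. Atp5g3 had 5.24, 5.33, 5.26 and 5.18, with only ORX under PPE, at -0.15, past the spot error. The median of the 3 was 0.084 for PPE in sham and 0.020 for ORX under PBS, and both turned sign under quantile normalization, to -0.042 and -0.059.

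Atp5s and Atp5sl carry the prefix by older naming, and their current symbols are Dmac2l and Dmac2. Atp5s, at -2.74, -2.71, -2.70 and -2.77 on the 4 arrays, had no difference past the spot error. Atp5sl, an assembly factor of complex I despite its name, had 1.31, 1.58, 1.67 and 1.63 and was low on sham/PBS alone. Its difference of 0.36 for ORX under PBS was the highest of the Atp5 names after Atp5c1. Its other probe had -1.64, -1.58, -1.37 and -1.87 and was lowest on ORX/PPE, so the probes disagree.

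Where a gene had other probes above background, most gave the same sign. For PPE in sham 29 of 40 other probes, from 31 genes, agreed in sign with the probe used, and their median was 0.11. The figures were 28 of 42 with a median of -0.12 for PPE in ORX, 26 of 40 with 0.091 for ORX under PBS, and 28 of 41 with -0.16 for ORX under PPE. The median was thus nearer 0 than that of the probes used for PPE in sham.

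Subunits encoded by mitochondrial DNA did not share the pattern of their nuclear partners. The 11 such genes on the array, among them ND1 to ND6 of complex I, CYTB of complex III and ATP8 of ATP synthase, had medians of -0.10 for PPE in sham and -0.11 for PPE in ORX. For ORX under PBS and under PPE their medians were -0.32 and -0.30. The files place the probe named ND3 on a nuclear chromosome, so its origin is uncertain. Over the alternative settings the median for PPE in sham ranged from -0.19 to -0.036 and that for ORX under PBS from -0.38 to -0.25. ND2 had levels of 6.57, 6.41, 6.12 and 6.01 in array order. CYTB had 7.44, 7.35, 7.12 and 7.05, and ATP8 had 4.96, 4.87, 4.70 and 4.57. All 3 were highest on sham/PBS and lowest on ORX/PPE, and 10 of the 11 genes were highest on sham/PBS, the array on which 1 of 71 nuclear members and 30% of all genes were. The exception, ND6, is the single protein gene read from the other strand of mitochondrial DNA. It had -1.02, -0.85, -0.62 and -0.13 on the 4 arrays, highest on ORX/PPE, with a difference of 0.72 for ORX under PPE. The difference between nuclear and mitochondrial genes was not tested.

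Other genes of energy metabolism in the nucleus were set beside the members. The 4 genes of complex II, which feeds electrons from succinate, had medians of 0.11, 0.0028, 0.079 and -0.047 in comparison order, and that for PPE in ORX was -0.022 under median scaling and -0.012 under normexp. The 10 widely expressed genes of complex IV, cytochrome c oxidase, had 0.21, -0.050, 0.085 and -0.14, with ORX under PBS at -0.011 under quantile normalization. The 18 genes of the TCA cycle and pyruvate dehydrogenase had 0.16, -0.077, 0.10 and -0.13. Complex IV and the TCA cycle thus had the same 4 signs as the members. The 16 genes of fatty acid oxidation had 0.17, 0.098, -0.17 and -0.16, and differed from the members in sign for PPE in ORX and for ORX under PBS. The 16 genes of glycolysis had 0.13, -0.028, 0.063 and -0.096, with ORX under PBS at -0.0053 under quantile normalization. With the scaling used here, glycolysis also had the same 4 signs as the members.

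Genes of the ribosomes and the proteasome, which are not subunits of the respiratory chain, also had medians above 0 for PPE in sham. The 78 genes of the mitochondrial ribosome, which translates the subunits encoded by mitochondrial DNA, had medians of 0.13, -0.043, 0.040 and -0.12 in comparison order. The 38 measured proteasome genes had 0.098, -0.050, 0.081 and -0.030, with ORX under PPE at 0.0053 under quantile normalization. The 79 measured genes of the cytosolic ribosome had 0.19 for PPE in sham and 0.19 for ORX under PBS, close to or above the members. Of those, 74 were lowest on sham/PBS and 45 highest on ORX/PPE, where 4 of 71 members and 24.2% of all genes were highest. Their medians for PPE in ORX and ORX under PPE were 0.029 and 0.031, with PPE in ORX at -0.016 under quantile normalization. A median above 0 for PPE in sham was therefore found in lists that hold no subunit of the respiratory chain. The cytosolic ribosome and the proteasome are among them. With the scaling used here, the mitochondrial ribosome and the proteasome had the same 4 signs as the members. The negative median for ORX under PPE was not found in the cytosolic ribosome.

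**Figure D4:**
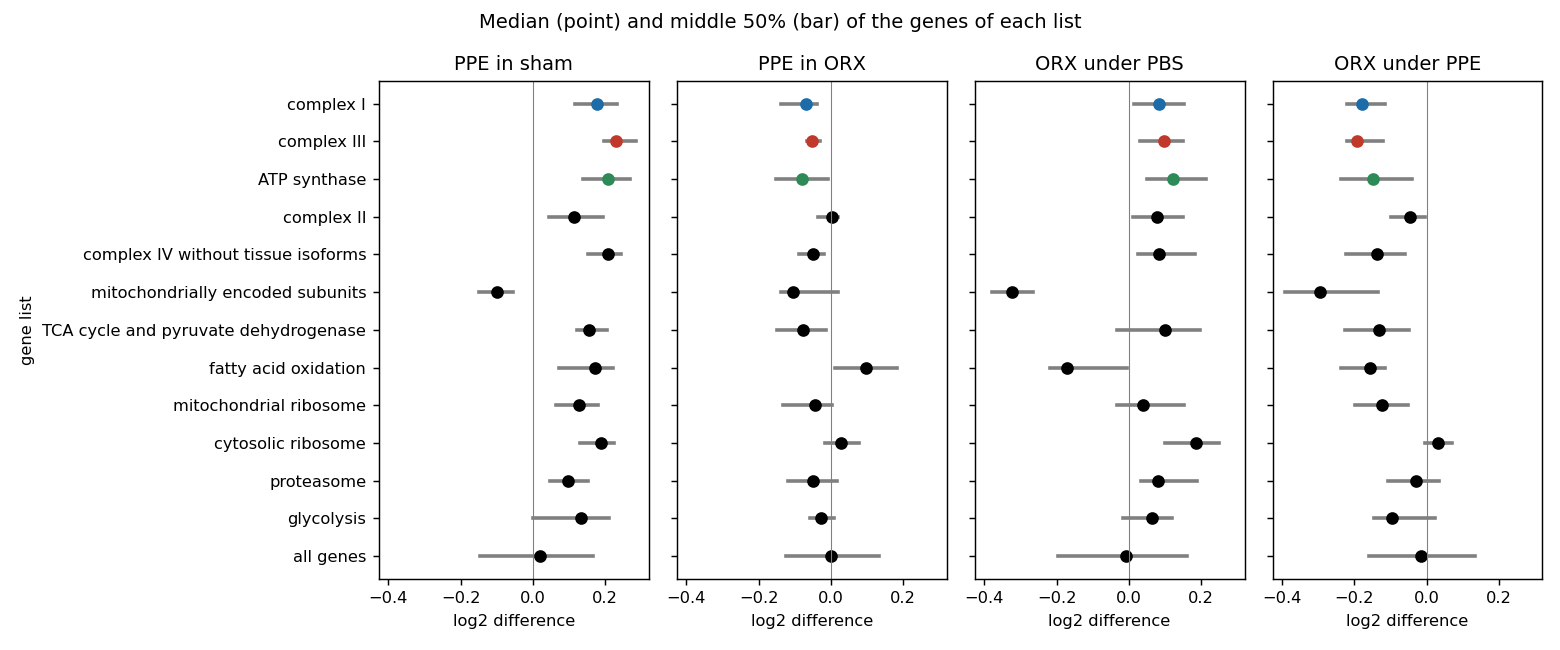
Median log2 difference (point) and middle 50% of genes (bar) of 12 gene lists and all measured genes in the 4 comparisons. Complexes I, III, IV and ATP synthase lie together at 0.18 to 0.23 for PPE in sham, with the cytosolic ribosome at 0.19, while the subunits encoded by mitochondrial DNA lie at -0.10 there and at -0.32 for ORX under PBS.

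Regulators of mitochondrial gene expression showed no common direction. The 15 genes had medians of 0.020, -0.027, -0.10 and -0.0015 in comparison order, and under the mean of all probes PPE in sham was at -0.11 and PPE in ORX at 0.015. Pprc1, a coactivator related to PGC-1, had levels of 0.79, 0.058, -0.18 and 0.17 in array order, high on sham/PBS alone. Ppargc1a, which encodes PGC-1alpha, had -1.24, -1.32, -1.67 and -1.28 and was low on ORX/PBS. Nrf1, the factor whose motif is shown above, had 0.47, 0.33, 0.31 and 0.54, and Tfam, which packages mitochondrial DNA, had 0.35, 0.44, 0.57 and 0.46.

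Markers of some other cells also differed between the arrays, several of them by larger amounts. The summed level of 20 cardiac muscle genes, in multiples of the 75th percentile, was 98.4, 198, 80.9 and 42.9 in array order, and all 20 were well above background on every array. Of the 71 members, 59 were highest on sham/PPE, where this sum was highest. The array on which 42 members were lowest, sham/PBS, had the next highest sum, and that on which 26 were lowest, ORX/PPE, had the lowest. The summed level of 9 neutrophil genes was 40.2, 136, 60.3 and 74.0, that of 8 alveolar macrophage genes 54.8, 102, 77.0 and 126, and that of 7 white fat genes 16.9, 29.9, 22.1 and 17.1. Brown fat genes, 11 in all, summed to 10.9, 23.4, 9.11 and 7.27, with Elovl3 not well above background on any array and Ucp1 only on sham/PPE and ORX/PBS. These 5 sums were higher on sham/PPE than on sham/PBS. The sum of 4 sperm genes was 0.12, 2.64, 0.12 and 0.12, so the sham/PPE array stood apart from the other 3 in genes that lung is not known for. The sum of 7 ciliated cell genes went the other way, at 58.7, 49.1, 49.0 and 46.9. So did those of club cells, at 1171, 1064, 925 and 938, and of endothelium, at 62.0, 57.6, 49.3 and 52.5. The median difference of the ciliated cell genes was -0.65, -0.017, -0.35 and 0.20 in comparison order. For ORX under PPE it was thus above 0, although the sum was lower on ORX/PPE than on sham/PPE. Sums for alveolar type 2 cells, 945, 1006, 877 and 948, and type 1 cells, 327, 342, 319 and 311, varied less. Such sums follow the brightest genes of a list, unlike the medians given for the members. The median difference of the type 2 genes was 0.22, 0.074, 0.094 and -0.061 in comparison order. For PPE in sham it was thus close to the members' 0.20. Type 1 genes had medians of 0.059, -0.16, -0.042 and -0.13, and the first ranged from -0.027 to 0.12 over the alternative settings. Skeletal muscle genes summed to 1.70, 1.76, 1.97 and 1.72, with Myh1 not well above background on sham/PBS and ORX/PPE. The part of these cells in the shift of the members was not tested.

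Complex IV has subunits with a widely expressed form and a heart and muscle form, which is also counted in the cardiac list. Cox7a1 and Cox8b are in the brown fat list as well. Cox6a2, Cox7a1 and Cox8b, the heart and muscle forms, differed by 0.61, 0.89 and 1.25 for PPE in sham and by -1.15, -1.90 and -2.22 for ORX under PPE. Their widely expressed partners Cox6a1, Cox7a2 and Cox8a differed by 0.19, 0.30 and 0.091 for PPE in sham and by -0.049, -0.18 and -0.091 for ORX under PPE. For ORX under PBS the muscle forms were at -0.060, -0.41 and -0.34, where the partners were at 0.18, 0.18 and 0.020 and the 71 members at a median of 0.086. The muscle forms and the members thus had the same sign in 3 comparisons and opposite signs for ORX under PBS.

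**Figure D5:**
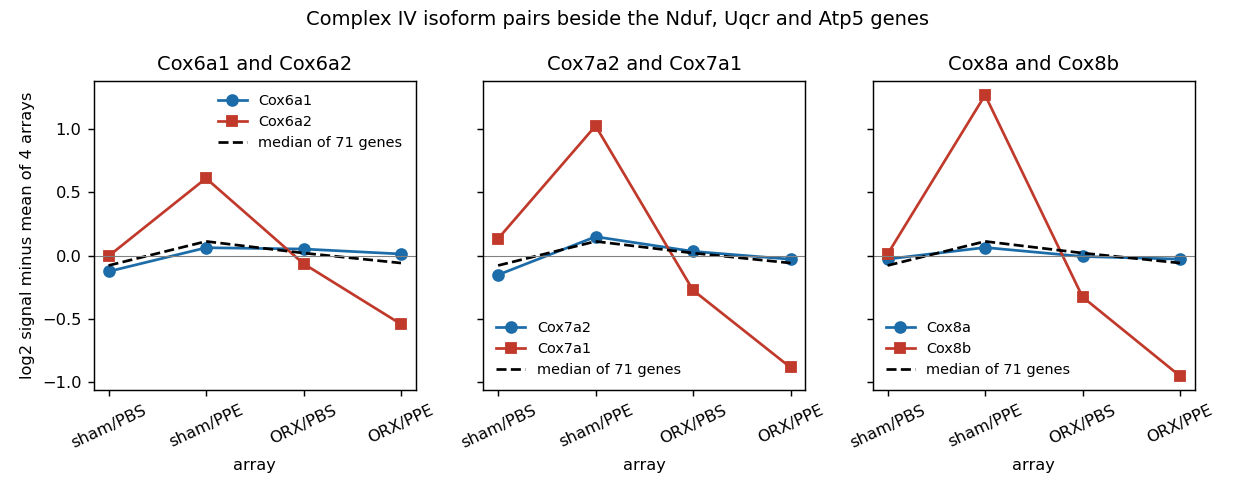
Log2 signal minus the gene's mean of the 4 arrays for 3 pairs of complex IV subunits, the widely expressed form (blue circles) and the heart and muscle form (red squares), beside the median of the 71 genes (dashed). The muscle forms peak on sham/PPE and are lowest on ORX/PPE, on a scale several times that of their partners and of the 71 genes, which run from -0.078 on sham/PBS to 0.11 on sham/PPE.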

How the data were processed

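Total RNA of lung was labelled with Cy3, per the labels, and hybridized to Agilent design 074809. The version of Agilent's extraction software is 10.7.1.1 per the file headers and 9.5.1.1 per the submitters' processing notes, and which holds was not settled. The deposited processed signal is a linear intensity with background subtracted and no scaling between arrays, per the file headers. The deposited value table is also linear intensity, with unstated scaling; its columns share a median of 71.5 and its log2 values correlate with the processed signal at 0.9998 or more, so direction is known and no centring was seen. Marks of 0 or 1 for background and outliers come from the same files, per the file headers.

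Outlier spots (31 to 54 of 59305 per array) were left out, spots of a probe averaged, log2 taken and each array's 75th percentile subtracted. A gene was represented by its brightest unsaturated probe and counted as measured if well above background on both arrays compared. Of 56605 probes, 10757 had no gene name, and symbols were updated through RefSeq GRCm38.p6. Members were taken by the name in the files. All 71 enter the counts and medians, and 1 of them is not reported by name here. The additive limma fit (limma 3.58.1, R 4.3.3, Benjamini-Hochberg adjustment) used genes above background on at least 2 arrays. Other steps used Python 3.11.15 with pandas 2.3.3, numpy 2.4.6 and matplotlib 3.10.9, and were tested on simulated data. Members named with levels are, in each complex, those with the highest 2 and lowest 2 differences per comparison, and those with the same sign for a factor in both comparisons among the 2 largest by the smaller difference. Genes of other lists were named as examples after their values were seen. The members and lists were chosen with earlier results of these data known, and the list of mitochondrially encoded genes was added after the files' names were seen. Alternatives were normexp with an offset of 50, quantile normalization, median scaling, other background filters, the mean of all probes, the value table and a background of genes with similar signal. A summary of the 59 subunits alone was added after seeing the data, and the NRF1 and YY1 motifs were shortened after matches of longer forms had been seen.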

Additional observations from a re-analysis of the deposited data

Results flagged for a closer look

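The median PPE difference of these genes had opposite signs in the 2 surgeries, and the median ORX difference had opposite signs under the 2 agents. Over all 71 genes the medians were 0.20 for PPE in sham and -0.070 for PPE in ORX, and 0.086 for ORX under PBS and -0.18 for ORX under PPE. For complex I they were 0.18 and -0.070 for PPE, and 0.083 and -0.18 for ORX. For complex III they were 0.23 and -0.053 for PPE, and 0.098 and -0.19 for ORX. For ATP synthase they were 0.21 and -0.079 for PPE, and 0.12 and -0.15 for ORX. The smaller side of each pair lay nearer the background. Past the spot error, 23 of 71 genes (32.4%) were lower for PPE in ORX, against 28.7% of all genes. For ORX under PBS 31 (43.7%) were higher, against 32.5%. Each group is 1 array, so none of these differences between surgeries or agents was tested. Both readings are of the same 4 arrays: gene by gene, the PPE difference in sham minus that in ORX equals the ORX difference under PBS minus that under PPE.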

How the results depend on the processing

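In all, 155 medians, excesses and differences of effects were recomputed under an alternative for 21 results. Of these, 127 stayed within 0.0512, the SD of a difference taken from replicate spots. Another 28 moved further, 0 reversed, and all 155 kept their sign. Some could not move. The background filters leave member medians unchanged, since all members passed them, and median scaling cannot change an excess. The value table gave nearly the same values as quantile normalization, so they are not separate checks. For PPE in sham the median of all members was 0.114 under quantile normalization, 0.265 under median scaling and 0.114 from the value table. In the same order it was 0.114, 0.241 and 0.113 for complex I, 0.131, 0.295 and 0.131 for complex III, and 0.110, 0.271 and 0.111 for ATP synthase. The difference of PPE effects was 0.202, 0.349 and 0.202. For ORX under PBS complex III was at 0.0147, 0.166 and 0.0151 and ATP synthase at 0.0277, 0.191 and 0.0291, while median scaling put all members at 0.155 and complex I at 0.152. The excess over all genes for PPE in sham was 0.122 under normexp, 0.101 under quantile normalization and 0.102 from the value table. Under normexp it was 0.159 for ORX under PBS and -0.104 for ORX under PPE. Why these values moved was not tested, except that median scaling also put all measured genes at 0.083 for PPE in sham and 0.060 for ORX under PBS. The 59 subunits alone had medians of 0.21, -0.065, 0.089 and -0.17. No paired analysis was possible because each group holds 1 array, and leaving out a replicate was not possible for the same reason. All members were well above background on each array.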
